A study of Mus musculus with 18 samples.

Results

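The small nucleolar RNA (snoRNA) genes of the embryonic mouse cortex were followed here across ribosome profiling (Ribo-seq) and RNA-seq libraries. A gene was included when its symbol began with Snord, Snora or Scarna and a digit, and when a fragment count was given for it in each of the 9 Ribo-seq libraries. The rule found 57 genes among 14348 genes with a count in all 9 libraries. By symbol, 39 were C/D box genes (Snord), 11 were H/ACA box genes (Snora) and 7 were small Cajal body RNA (scaRNA) genes (Scarna). The rule itself used no difference between genotypes, but the authors' reason for leaving the counts of other genes blank is not known.

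SnoRNAs are short noncoding RNAs that work in the nucleus as ribonucleoprotein particles. C/D box snoRNAs guide ribose methylation of ribosomal RNA, H/ACA box snoRNAs guide its pseudouridylation, and scaRNAs guide the same modifications on spliceosomal RNAs in Cajal bodies. Most are cut out of introns of host genes, many of which encode ribosomal proteins or other parts of the translation machinery. They are not known to be translated, so a Ribo-seq count at a snoRNA gene is a count of nuclease-resistant fragments of footprint length and not a measure of translation.

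The libraries came from E15.5 cerebral cortices labelled C57BL/6, in 3 genotypes. Ctrl cortices were labelled wild type, *M*-cKO cortices carried floxed *Mettl3* (the catalytic subunit of the m6A RNA methyltransferase) with *Emx1*-Cre, and *F*-cKO cortices carried floxed *Fto* (an RNA demethylase) with *Emx1*-Cre. The floxed lines were on a mixed C57/BL6 and 129 background, and *Emx1*-Cre acts only in the *Emx1* lineage, so interneurons, vessels, microglia and meninges of the same tissue keep the gene. Each genotype had 3 Ribo-seq and 3 RNA-seq libraries. The study's methods read as if the Ribo-seq samples came from a single litter. Its text calls the RNA-seq replicates biological, and its statistics section states at least 3 biological replicates for mouse brain experiments in general. Captions of figures with both assays give 3 independent samples. The labels do not tie libraries to animals or litters, so P values measure the spread between these samples, which may in part be technical.

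Ribo-seq depth was 35853227, 30081796 and 31570596 counted fragments in Ctrl, 20933167, 13764136 and 21725348 in *M*-cKO, while *F*-cKO had 20564223, 10973699 and 32954317. All *M*-cKO libraries and *F*-cKO libraries 1 and 2 were thus shallower than every Ctrl library, and *F*-cKO library 3 lay within the Ctrl range. Depth therefore differed with genotype, and its part in the snoRNA values was not tested. RNA-seq depth was 18504094 to 22592406 counted reads. Fto RPKM in Ribo-seq was 25.9, 22 and 17.6 in Ctrl and 3.91, 2.11 and 4.04 in *F*-cKO. Mettl3 RPKM was 9.16, 9.25 and 9.93 in Ctrl and 6.78, 6.02 and 6.4 in *M*-cKO. In RNA-seq, by contrast, Mettl3 went against its label: its FPKM was 5.84, 6.43 and 5.07 in Ctrl and 8.61, 7.82 and 8.34 in the libraries labelled *M*-cKO (log2 fold change 0.51 ± 0.09 SE, adjusted P = 0.00221). Only exons 2 and 3 are floxed, so the value over the whole gene does not check the deletion.

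The second *F*-cKO Ribo-seq library stood apart from the others. A summed set of endothelial markers (Cldn5, Pecam1 and Kdr) reached 61 RPKM in it and 3.5 to 6.75 RPKM in the other 8 libraries. Microglial markers (Csf1r, Cx3cr1 and P2ry12) reached 10.6 RPKM against 1.64 to 2.71 RPKM, and meningeal markers (Col1a1, Dcn and Lum) reached 23.5 RPKM against 0.995 to 11.3 RPKM. It was also the shallowest library, at 10973699 fragments. The main edgeR counts and the values of the leading genes in *F*-cKO are therefore also given without it. DESeq2 was not run without it.

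The members were unevenly represented. By CPM averaged over the 9 libraries, Snord87 made up 38.2% of the sum over the 57 genes, Snord87, Snord104 and Snord43 together 70.1%, and 10 genes 91.8%. In single libraries those 3 genes held 62.3% to 80% of the fragments counted at the 57 genes. Their order varied: Snord43 was above Snord87 in Ctrl libraries 2 and 3 (2442 against 2402 CPM and 3044 against 2095 CPM), and in the second *F*-cKO library both Snord104 (5872 CPM) and Snord43 (4342 CPM) were above Snord87 (833.2 CPM). These shares are not corrected for gene length, which ran from 28 to 275 bases. At least 10 fragments were counted in every library for 49 genes, and 8 genes had fewer than 10 in some library.

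Summed over all 57 genes, snoRNA fragments were a larger share of the Ribo-seq libraries of both knockouts than of Ctrl. They made up 0.865%, 0.807% and 1.1% of counted fragments in the 3 Ctrl libraries, 2.12%, 1.34% and 1.29% in *M*-cKO, while *F*-cKO had 2.68%, 1.65% and 1.23%. Each of the 6 knockout libraries exceeded the Ctrl range, although *F*-cKO library 3 was only just above the highest Ctrl library. That library was also the only knockout library with a depth (32954317 fragments) within the Ctrl range. The others were shallower than Ctrl, and whether depth bears on these shares was not tested.

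The summed values of each class show which libraries carried the change. Summed C/D CPM (counts scaled to the total of counted fragments in the library) was 8437, 7824 and 10670 in Ctrl, 20150, 12530 and 12260 in *M*-cKO, while *F*-cKO had 25720, 15330 and 12070. All 6 knockout libraries were higher than Ctrl, with means of 8977 ± 1500 in Ctrl, 14980 ± 4480 in *M*-cKO and 17710 ± 7130 in *F*-cKO (mean ± SD, n = 3 each), which is 1.67 and 1.97 times Ctrl. These sums were dominated by a few genes. Without Snord87 the ratios were 1.23 and 1.64, and without Snord87, Snord104 and Snord43 they were 2.08 and 2.04. Not all knockout libraries then exceeded Ctrl. Without Snord87, *M*-cKO libraries 2 and 3 (7053 and 7210 CPM) and *F*-cKO library 3 (6555 CPM) lay below the highest Ctrl library (8574). The other knockout libraries stayed above it. Without all 3 genes, only *F*-cKO library 3 (2241 CPM) lay within the Ctrl range of 1530 to 3186 CPM. *M*-cKO library 3 was just above that range, at 3230 CPM.

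Summed H/ACA CPM was 47.95, 63.89 and 80.61 in Ctrl, 398.6, 430 and 231.7 in *M*-cKO, while *F*-cKO had 332.5, 27.34 and 74.8. The *M*-cKO mean was 5.51 times Ctrl and the ranges did not overlap, whereas in *F*-cKO one library was at the *M*-cKO level, one was below every Ctrl library and one lay within the Ctrl range. Summed scaRNA CPM was 162.2, 185.5 and 205.3 in Ctrl, 681.8, 464 and 388.9 in *M*-cKO, while *F*-cKO had 714.1, 1190 and 142.5. The *M*-cKO mean was 2.78 times that of Ctrl, again without overlap, and the *F*-cKO libraries lay on both sides of it. No test was run on these sums, and whether the classes differ in their change was not tested.

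**Figure D1:**
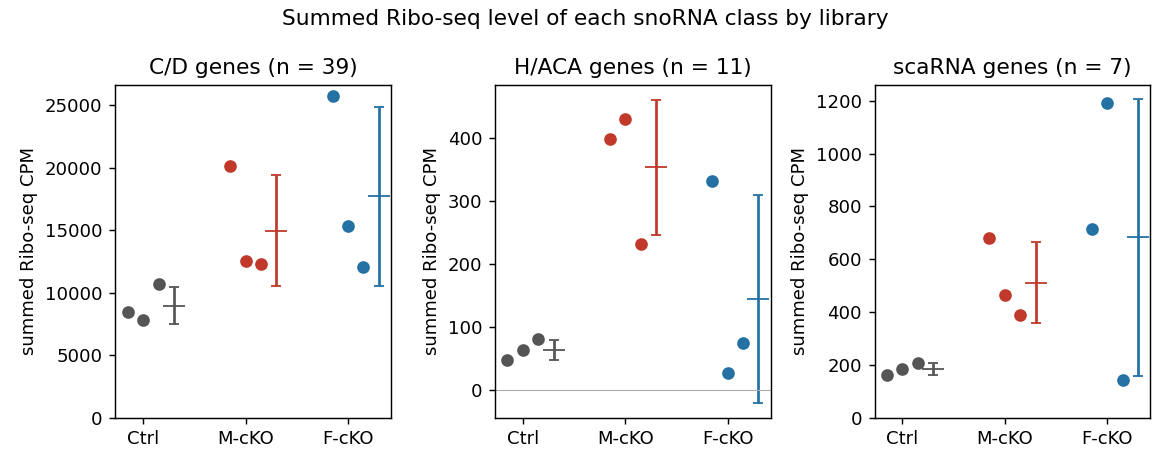
Summed Ribo-seq CPM (linear axes) of the C/D, H/ACA and scaRNA genes in 3 panels, with a point for each library and, beside the points of each genotype, its mean with bars of 1 SD. For H/ACA genes the 3 *M*-cKO libraries (231.7 to 430) lie above all Ctrl libraries (47.95 to 80.61), while the *F*-cKO libraries run from 27.34 to 332.5.

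Some other classes of short RNA differed in the same libraries, and their part in these results was not tested. Spliceosomal snRNA genes took 0.115% to 0.146% of fragments in Ctrl, 0.368% to 0.558% in *M*-cKO and 0.211% to 0.37% in *F*-cKO, above Ctrl in all 6 knockout libraries. Genes of miRNAs took 1.01% to 2.31% in Ctrl, 5.22%, 6.73% and 2.15% in *M*-cKO and 1.05% to 1.48% in *F*-cKO, so they were above Ctrl in the first and second *M*-cKO libraries and within the Ctrl range in the other 4. Protein-coding genes took 91.3% to 92.7%, 83.4% to 90% and 89.6% to 92.3%. A summed set of ganglionic eminence markers (Dlx1, Dlx2 and Gad2, genes of interneuron precursors, which are outside the *Emx1* lineage) was 18.3 to 29.2 RPKM in Ctrl, 30 to 63.5 RPKM in *M*-cKO and 16.3 to 26.7 RPKM in *F*-cKO, so it too was higher in every *M*-cKO library. None of these 3 genes was at 0. Sums of erythroid and choroid plexus markers overlapped between all genotypes (311 to 808 and 212 to 1970 RPKM). In bulk tissue, a change in the number of cells of a type and a change in RNA per cell cannot be told apart.

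The comparison of *M*-cKO with Ctrl in Ribo-seq asked which snoRNA genes differed after *Mettl3* deletion. Of the 57 genes, 26 rose and 1 fell at an adjusted P below 0.05 (edgeR quasi-likelihood test, Benjamini-Hochberg adjustment over 14314 genes). Over all genes tested, 7.13% rose and 7.5% fell. The 26 were 13 of 39 C/D genes, 10 of 11 H/ACA genes and 3 of 7 scaRNA genes. Median log2 fold changes were 1.25 for C/D, 2.22 for H/ACA and 1.26 for scaRNA genes, beside 0 for all genes tested. In 30 of the 57 genes the 3 *M*-cKO libraries were all higher than the highest Ctrl library (20.1% of all genes did so), and in 1 all were lower than the lowest (16.4%). At an unadjusted P below 0.05, 38 were higher and 1 lower (16.6% and 17.5% of all genes). Calls rested on the spread estimated from these 6 libraries. When all 9 Ribo-seq libraries shared one fit, 1 gene was still called higher (Snora47) and 0 lower (0.202% and 0.0419% of all genes). The numbers called higher were 7, 5 and 15 without Ctrl library 1, 2 and 3 and 15 without *M*-cKO library 1. Over all genes tested they were 230 of 14318, 115 of 14307, 269 of 14313 and 500 of 14339 in the same fits, beside 1020 of 14314 in the full comparison. Snord43 was not called lower without Ctrl library 2 or 3. DESeq2 called 34 higher and 1 lower (11.3% and 10.6% of all genes), and a block on the replicate number left 17 and 1 (4.76% and 4.46% of all genes). The direction of all 27 calls was the same in each of these fits.

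Among C/D genes, Snord61 had the smallest P value. Snord61 guides methylation of small subunit rRNA and lies at chrX:57391448-57391509 (mm10) within Rbmx, a gene for an RNA-binding protein. It was counted at 28.9, 29.12 and 18.85 CPM in Ctrl, 325.3, 193.7 and 122.7 in *M*-cKO, while *F*-cKO had 112.4, 23.6 and 34.14. All *M*-cKO libraries were far above Ctrl, and the first *F*-cKO library was between them. The log2 fold change of *M*-cKO over Ctrl was 3.06 ± 0.38 (SE, adjusted P = 0.00734).

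Snord65, another small subunit rRNA guide, lies within the noncoding gene 2410006H16Rik together with Snord49a and Snord49b. Its CPM was 26.5, 22.01 and 27.81 in Ctrl and 124.9, 89.87 and 67.66 in *M*-cKO, with no overlap, and the log2 fold change was 1.87 ± 0.25 (adjusted P = 0.00862). Its neighbours in the same host were not called: Snord49a was at 181.7, 359.4 and 554.2 CPM in Ctrl and 781.8, 822.6 and 623.7 CPM in *M*-cKO (0.99 ± 0.37, adjusted P = 0.108), and Snord49b at 105.4, 60.24 and 55.3 CPM against 74.67, 138.6 and 71.44 CPM (0.34 ± 0.33, adjusted P = 0.496). For Snord49a the groups did not overlap but the Ctrl libraries were widely spread, and for Snord49b they overlapped.

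Of the other C/D genes with the smallest P values, Snord89, which has no annotated host in the table used, rose from 6.443, 10.07 and 12.86 CPM to 126.5, 68.87 and 46.44 CPM (log2 fold change 3.03 ± 0.44, adjusted P = 0.0104). Snord66 and Snord59a, both guides for small subunit rRNA, rose by 2.42 ± 0.40 and 2.64 ± 0.46 on the log2 scale (adjusted P = 0.0146 and 0.0161). Snord55, a large subunit rRNA guide, rose by 2.92 ± 0.58 (adjusted P = 0.0215). In each of these genes the *M*-cKO values were all higher than the Ctrl values. The other C/D genes that rose, beside Snord87 and Snord17, were Snord23, Snord82, Snord58b, Snord123 and Snord93, by 1.30 to 2.98 on the log2 scale (adjusted P = 0.0324 to 0.0473).

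Of the 3 genes with the most fragments, Snord87 and Snord43 were called and went in opposite directions. Snord87, a large subunit rRNA guide at chr1:9942470-9942543 (mm10) within the noncoding host Snhg6, was counted at 3040, 2402 and 2095 CPM in Ctrl and at 10620, 5477 and 5053 CPM in *M*-cKO. All *M*-cKO libraries were higher, with a log2 fold change of 1.48 ± 0.32 (adjusted P = 0.0263). Snord43, a small subunit rRNA guide at chr15:80082859-80082906 within the ribosomal protein gene Rpl3, was counted at 2438, 2442 and 3044 CPM in Ctrl and at 1048, 614.1 and 1179 CPM in *M*-cKO. It was the 1 member that fell, by 1.52 ± 0.24 on the log2 scale (adjusted P = 0.0123), and it was below Ctrl in every *M*-cKO library. Snord83b, in the same host, was not called, at 95.22, 180.3 and 438.4 CPM in Ctrl and 500, 436.9 and 136.7 CPM in *M*-cKO, with overlapping ranges.

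Snord104, a large subunit rRNA guide at chr11:106500991-106501063, was not called. It was counted at 1428, 1188 and 2344 CPM in Ctrl and 2321, 2276 and 2802 CPM in *M*-cKO, and the highest Ctrl library overlapped the *M*-cKO range (0.53 ± 0.25, adjusted P = 0.183). Snord17, within Snx5, rose by 1.26 ± 0.31 (adjusted P = 0.0367), from 306.9, 307.1 and 429.6 CPM to 1215, 535 and 800.6 CPM.

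C/D members with roles other than guiding methylation did not pass the test. Snord118 (U8), which acts in processing of large subunit pre-rRNA, was counted at 46.36, 63.76 and 238.9 CPM in Ctrl, 54.46, 90.38 and 50.91 CPM in *M*-cKO, while *F*-cKO had 90.4, 491.4 and 47.82 CPM. Its log2 fold change in *M*-cKO was -0.89 ± 0.61 (adjusted P = 0.335), and the value was 0.26 without the third Ctrl library. Snord13 (U13), which guides acetylation of small subunit rRNA, was at 6.164, 3.756 and 3.991 CPM in Ctrl and 9.268, 11.26 and 5.063 CPM in *M*-cKO (0.85 ± 0.35, adjusted P = 0.127). The ranges overlapped in both genes.

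The H/ACA genes gave few fragments, with a median over genes of 7.13 CPM beside 21.8 CPM for C/D genes (not corrected for length), and 10 of the 11 rose. The smallest P values were those of Snora30 and Snora47. Snora30, a large subunit rRNA guide at chr7:127527897-127528003 within Srcap, was counted at 1.032, 1.762 and 1.679 CPM in Ctrl, 22.07, 28.48 and 12.8 CPM in *M*-cKO, while *F*-cKO had 7.246, 1.276 and 1.457 CPM. The *M*-cKO libraries were all higher than the others, with a log2 fold change over Ctrl of 3.80 ± 0.37 (adjusted P = 0.00401).

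Snora47, at chr13:95330611-95330736 within Zbed3, was at 1.171, 1.795 and 2.027 CPM in Ctrl, 14.47, 21.43 and 11.55 CPM in *M*-cKO, while *F*-cKO had 2.772, 0.8201 and 1.608 CPM. Here too the *M*-cKO libraries stood above the other 6 (log2 fold change over Ctrl 3.22 ± 0.32, adjusted P = 0.00401). It was the member that was called in *M*-cKO against Ctrl under all 12 alternative settings tried.

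Snora31 was the most abundant H/ACA gene by fragments. It guides modification of large subunit rRNA and lies at chr14:75847923-75848034 within Tpt1, a gene with a highly translated mRNA. It was counted at 31.1, 37.63 and 44.31 CPM in Ctrl, 243.3, 188.5 and 129 CPM in *M*-cKO, while *F*-cKO had 225.4, 3.007 and 47.19 CPM. Each *M*-cKO library was above Ctrl (2.29 ± 0.27, adjusted P = 0.00614), and the *F*-cKO libraries spanned values from far below Ctrl to the level of *M*-cKO.

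Snora21, at chr11:97781639-97781766 within the ribosomal protein gene Rpl23, rose from 0.781, 1.529 and 0.8552 CPM to 12.04, 30.88 and 8.193 CPM (3.99 ± 0.56, adjusted P = 0.00964). Snora74a (U19), within Snhg4, rose from 1.952, 3.424 and 2.154 CPM to 28.14, 88.93 and 15.7 CPM (4.12 ± 0.67, adjusted P = 0.0133). Both were low in *F*-cKO, where no library exceeded 5.252 CPM. Snora20, Snora17 and Snora62 rose by 2.20 ± 0.43, 2.22 ± 0.45 and 1.81 ± 0.40 (adjusted P = 0.0208, 0.0218 and 0.0277), and Snora69 and Snora41 by 1.66 ± 0.40 and 1.44 ± 0.38 (adjusted P = 0.0339 and 0.043). The gene that did not pass was Snora23, with overlapping ranges (0.57 ± 0.39, adjusted P = 0.343).

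Among scaRNA genes, Scarna2 held most of the fragments. It guides methylation of the U2 spliceosomal RNA, has no annotated host in the table used and lies at chr3:108554342-108554402. It was counted at 135.2, 171.4 and 169.6 CPM in Ctrl, 628.5, 404.8 and 355.9 CPM in *M*-cKO, while *F*-cKO had 664.7, 988 and 132.6 CPM. It rose in *M*-cKO by 1.53 ± 0.24 (adjusted P = 0.0128), and in *F*-cKO it was high in 2 libraries and just below the Ctrl range in the third. Scarna8, within Haus6, rose by 3.12 ± 0.51 (adjusted P = 0.0133), from 0.6694, 0.5319 and 0.6335 CPM to 5.016, 9.082 and 2.394 CPM.

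Scarna13 (chr12:105031075-105031349, within Snhg10) rose from 3.152, 3.49 and 2.312 CPM to 12.13, 9.881 and 6.168 CPM in *M*-cKO (1.64 ± 0.31, adjusted P = 0.0184), with no overlap. Scarna3a (chr1:159340307-159340424, within Cop1) was not called. It was counted at 19.72 CPM in the first Ctrl library and at 0.4556 to 1.385 CPM in the other 8, and its log2 fold change in *M*-cKO turned from -2.66 ± 1.26 to 0.56 without that library. Each of these genes spans an annotated miRNA gene, Mir3069 and Mir1843b, whose mature products are 20 to 24 bases long and would fall within the 20 to 38 base fragments that were sequenced. They are shown because fragments counted at Scarna13 and Scarna3a could include them, which was not tested. The sequences are from RefSeq (GRCm38.p6), with the seed (bases 2 to 8) in capitals. Mir3069 lies on the minus strand at chr12:105031078-105031099 (3p) and chr12:105031117-105031140 (5p), and Mir1843b on the plus strand at chr1:159340362-159340382 (5p) and chr1:159340400-159340419 (3p).
mmu-miR-3069-3p: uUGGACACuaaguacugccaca
mmu-miR-3069-5p: uUGGCAGUcaagauauuguuuagc
mmu-miR-1843b-5p: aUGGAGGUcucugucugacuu
mmu-miR-1843b-3p: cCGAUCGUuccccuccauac
No seed was shared between the 4 sequences. Both miRNA genes were listed at 0 in RNA-seq counts and in Ribo-seq RPKM in every library.

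The other scaRNA genes did not pass. Scarna9, a guide for U2, Scarna10 (U85), a guide for U5, and Scarna6 had log2 fold changes of 1.12 ± 0.92, 1.26 ± 0.97 and 0.89 ± 0.52 (adjusted P = 0.425, 0.391 and 0.27), and their *M*-cKO and Ctrl ranges overlapped.

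**Figure D2:**
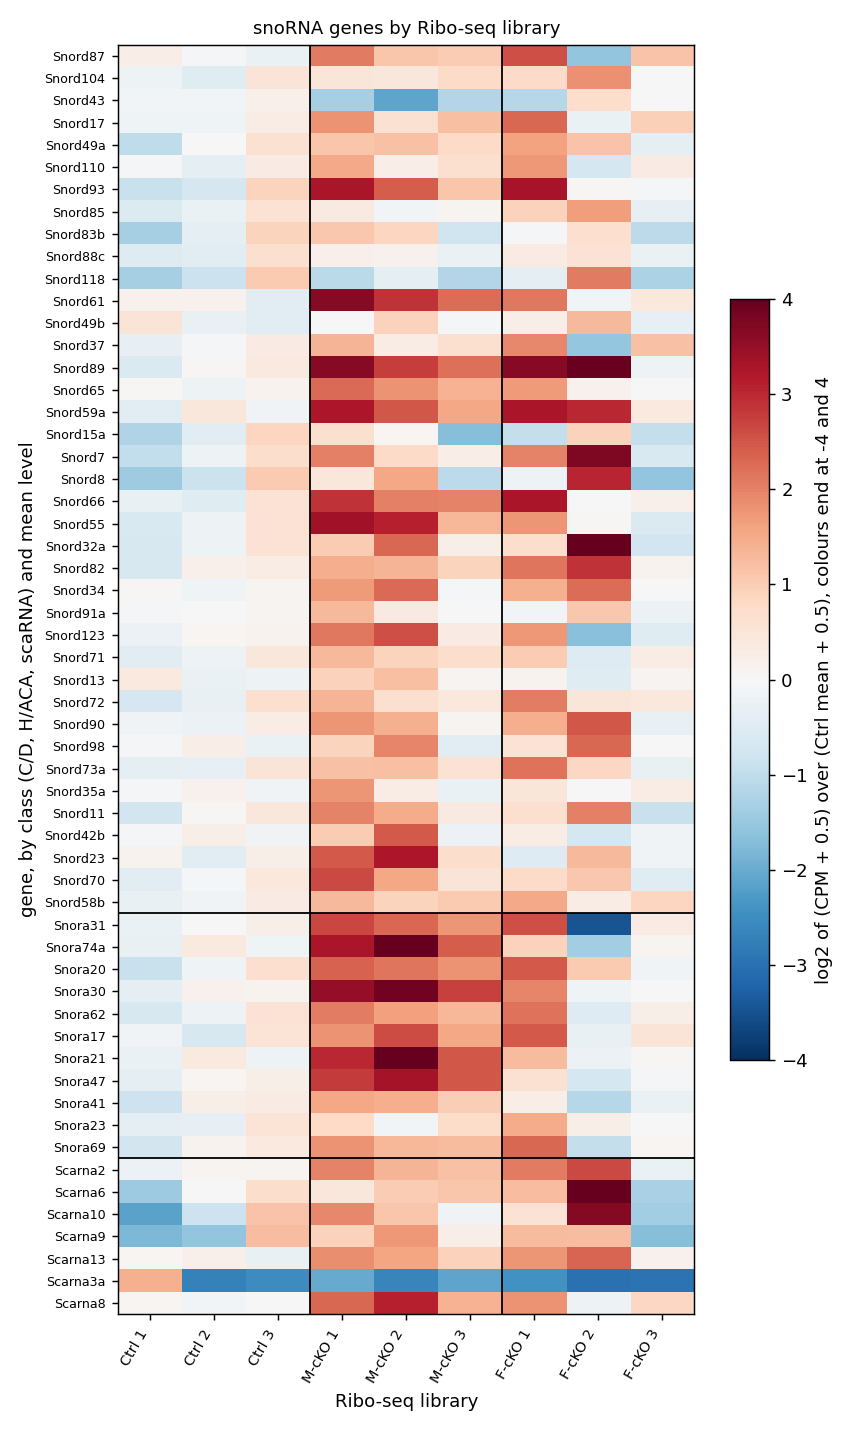
Log2 ratio of each gene's CPM to its Ctrl mean (0.5 CPM added to both) for the 57 snoRNA genes (rows, by class) in the 9 Ribo-seq libraries (columns). Most rows are above Ctrl in the *M*-cKO libraries and in the first *F*-cKO library, the third *F*-cKO library is near Ctrl, and the second *F*-cKO library is low for many H/ACA genes (medians over genes of the ratio taken without the added value 1.82, 1.57 and 0.76 for *M*-cKO, then 1.62, 0.57 and -0.05 in the 3 *F*-cKO libraries).

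In *F*-cKO against Ctrl no snoRNA gene passed an adjusted P of 0.05 in Ribo-seq by edgeR (0% of the 14335 genes did, in either direction), and none did by DESeq2. At an unadjusted P below 0.05, 9 of the 57 genes were higher and 1 was lower by edgeR, beside 1.58% and 0.635% of all genes, and DESeq2 gave 17 higher and 0 lower, beside 4.11% and 0.928%. The count of 9 moved with single libraries. It was 2 without Ctrl library 1, 4 without Ctrl library 2, 5 without *F*-cKO library 1, 21 without *F*-cKO library 2 and 19 without *F*-cKO library 3, where 45, 45, 687, 339 and 1741 of all genes were higher at that threshold, beside 227 in the full comparison. The lack of adjusted calls extended to Fto itself (log2 fold change -2.68 ± 0.25, unadjusted P = 2.44e-05, adjusted P = 0.35 by edgeR and 5.33e-16 by DESeq2). Fold changes were positive in 52 of the 57 genes, with medians of 1.07 for C/D, 1.19 for H/ACA and 1.85 for scaRNA genes beside 0.05 for all genes. In 0 of the 57 genes did all 3 *F*-cKO libraries lie above, or all 3 below, the Ctrl range (4.32% and 3.28% of all genes).

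The smallest P values in *F*-cKO were those of Snord59a (2.76 ± 0.74, unadjusted P = 0.0081), Snord89 (3.35 ± 0.99, unadjusted P = 0.0128) and Scarna13 (1.85 ± 0.59, unadjusted P = 0.0174), each with an adjusted P of 0.73 in the edgeR fit. Snord59a was counted at 6.889, 13.26 and 8.806 CPM in Ctrl and at 96.82, 81.83 and 12.93 CPM in *F*-cKO. Snord89 was at 127.6, 159.1 and 8.527 CPM in *F*-cKO, with the third library below the highest Ctrl value of 12.86 CPM. In both genes the first and second *F*-cKO libraries were high and the third was within the Ctrl range. This order changed without the second library, when the smallest P values were those of Snord37 (1.61 ± 0.29, unadjusted P = 0.000808), Snord87 (2.05 ± 0.40, unadjusted P = 0.00123), Snord17 (1.79 ± 0.38, unadjusted P = 0.0022) and Scarna8 (1.98 ± 0.44, unadjusted P = 0.00294), each with an adjusted P of 0.875 in the edgeR fit. Snord59a, Snord89 and Scarna13 then had values of 2.54 ± 0.73, 2.82 ± 0.92 and 1.31 ± 0.49 (unadjusted P = 0.00995, 0.0178 and 0.0301).

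The 3 *F*-cKO libraries disagreed with one another more than those of the other genotypes. Relative to the 3 Ctrl libraries, 44 of the 57 genes were above all of them in the first *F*-cKO library (32.3% of all genes were), 28 in the second (41.4%) and 9 in the third (25.9%). The corresponding counts in *M*-cKO were 46 (31.6%), 44 (41%) and 35 (42.1%). Below all 3 Ctrl libraries were 15 genes in the second *F*-cKO library (43.9% of all genes) and 9 in the third (16.3%). The median coefficient of variation of C/D genes was 80.7% in *F*-cKO, 48.1% in *M*-cKO and 36.3% in Ctrl, beside 26.4%, 13.9% and 9.8% for all genes.

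The second *F*-cKO library was above all 3 Ctrl libraries for 22 of the 39 C/D, 1 of the 11 H/ACA and 5 of the 7 scaRNA genes and below all 3 for 8, 5 and 2, beside 41.4% and 43.9% of all genes, so it lay outside the Ctrl range for most genes of the table and not for snoRNA genes in particular. A difference between the classes was not tested. Snord87 was at 14980, 833.2 and 5511 CPM in *F*-cKO, Snord104 at 2794, 5872 and 1660 CPM and Snord43 at 1185, 4342 and 2654 CPM, so the second library was lowest for the first gene and highest for the others. Without this library, 0 members were called by edgeR, 21 were higher and 0 lower at an unadjusted P below 0.05 (2.36% and 1.52% of all genes), and the medians were 0.95 for C/D, 1.55 for H/ACA and 0.50 for scaRNA genes. The result thus also rested on the first library: without it, the H/ACA median was -0.12. Whether the vessel and microglial markers of the second library bear on these values was not tested.

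The comparisons of *M*-cKO and *F*-cKO with Ctrl share the Ctrl libraries, so their fold changes are given only side by side. Snora30, Snora47, Snora21 and Snora74a had log2 fold changes of 3.80, 3.22, 3.99 and 4.12 in *M*-cKO, while *F*-cKO had 1.19, 0.09, 0.76 and 0.24, or 1.55, 0.39, 1.06 and 0.69 without its second library. Scarna2, Snord89, Snord59a and Snord82 had 1.53, 3.03, 2.64 and 1.30 in *M*-cKO, while *F*-cKO had 1.93, 3.35, 2.76 and 2.22, or 1.36, 2.82, 2.54 and 1.56 without that library. Snord43 had -1.52 and 0.05, the latter -0.47 without it.

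Tested directly against each other in Ribo-seq, *M*-cKO and *F*-cKO differed in none of the 57 genes at an adjusted P below 0.05 by edgeR (0% of 14262 genes passed in either direction). At an unadjusted P below 0.05, 8 genes were higher in *M*-cKO and 1 lower, beside 4.98% and 3.11% of all genes. These counts were 18 and 1 without *F*-cKO library 1, 5 and 8 without *F*-cKO library 3 and 5 and 1 without *M*-cKO library 1, where 687 and 933, 809 and 1061, and 473 and 171 of all genes passed, beside 710 and 444 in the full comparison. DESeq2 called 5 genes higher in *M*-cKO and none lower, beside 1.25% and 0.196% of all genes, and all 5 were H/ACA genes: Snora74a, Snora30, Snora47, Snora21 and Snora41. In each of the 5 the *M*-cKO libraries were all higher than the *F*-cKO libraries. This held for 6 of the 57 genes (9.73% of all genes), the other being Snord61, and the opposite for 1, Snord43 (5.9% of all genes). Snora47 had a log2 difference of 3.14 ± 0.52 (unadjusted P = 0.00057, adjusted P = 0.297 by edgeR), Snora21 of 3.25 ± 0.75 and Snora74a of 3.88 ± 0.93. Without the second *F*-cKO library these were 2.84 ± 0.41, 2.95 ± 0.74 and 3.45 ± 0.82, and none of the 57 genes was called by edgeR. The median over H/ACA genes was 1.00 in the full comparison and 0.43 without that library.

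**Figure D3:**
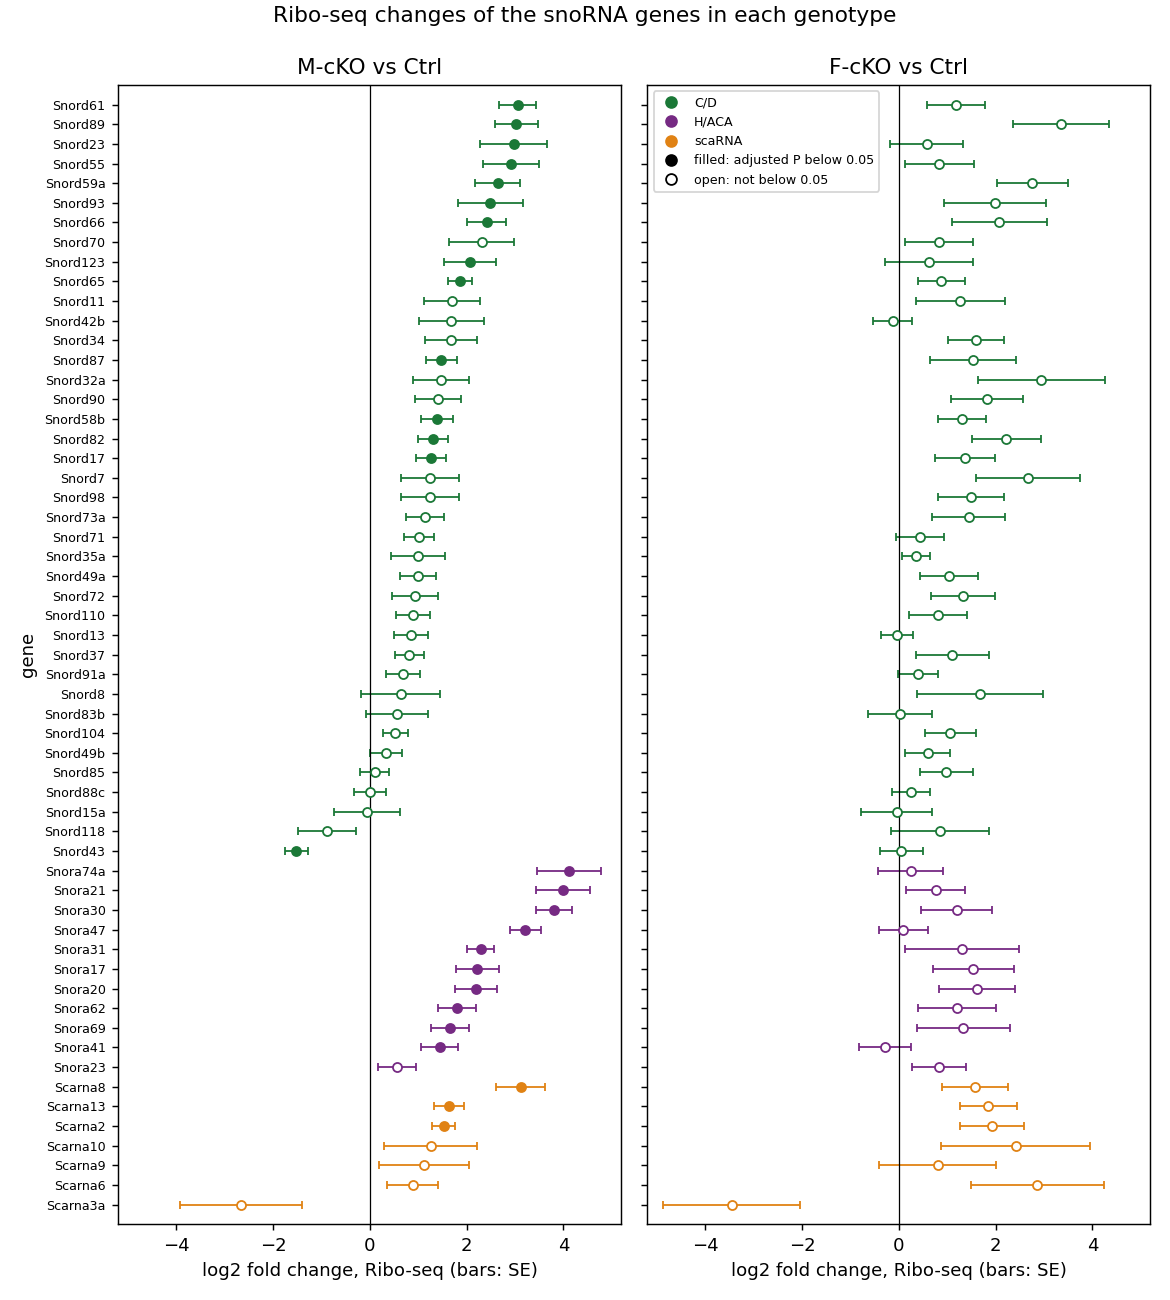
Ribo-seq log2 fold change with bars of 1 SE for each of the 57 genes (rows, coloured by class) in *M*-cKO against Ctrl (left panel) and *F*-cKO against Ctrl (right panel), where filled points have an adjusted P below 0.05 and both panels use the same 3 Ctrl libraries. Filled points occur in the left panel only, 26 to the right of 0 and Snord43 to the left at -1.52, and the bars of the right panel are wider for most genes.

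RNA-seq held few reads from these genes. In all 9 libraries together 5132 reads were counted at the 57 genes, 39.9% of them at Snord104. No read was counted in any library for 8 genes, and 40 had fewer than 10 in each. Summed CPM was 28.7 ± 1.16 in Ctrl, 25.8 ± 1.2 in the RNA-seq libraries labelled *M*-cKO and 27.2 ± 2.72 in *F*-cKO (SD, n = 3). By class, the C/D sum was 22.3, 23.2 and 22.7 CPM in Ctrl and 23, 21.2 and 20.3 CPM in the libraries labelled *M*-cKO. The H/ACA sum was 5.59, 5.9 and 4.54 CPM in Ctrl, 3.54, 4.35 and 3.83 CPM in the libraries labelled *M*-cKO and 4.29, 5.24 and 7.6 CPM in *F*-cKO. Each labelled *M*-cKO library was thus below each Ctrl library for H/ACA genes in RNA-seq, while in Ribo-seq each *M*-cKO library was above each Ctrl library. The assays may not count the same RNA. RNA-seq reads were 150 bases long and paired, while the genes span 28 to 275 bases. Whether these reads came from snoRNAs or from longer transcripts over the same positions was not tested. The scaRNA sum rested on 5 to 16 reads a library.

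**Figure D4:**
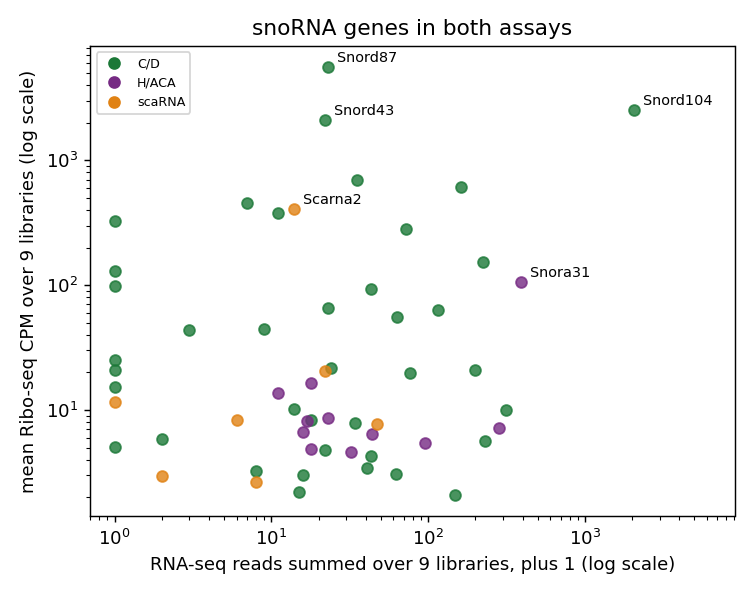
Mean Ribo-seq CPM over 9 libraries (vertical log axis) against RNA-seq reads summed over 9 libraries plus 1 (horizontal log axis) for the 57 genes, coloured by class. Points at the left edge are the 8 genes with no RNA-seq read, and Snord87 and Snord43, near the top, have few RNA-seq reads beside Snord104, which holds 39.9% of them.

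Of the 57 genes, 10 passed the filter on low counts in the libraries labelled *M*-cKO against Ctrl, and 0 were called in either direction by edgeR or by DESeq2 (15.5% of all genes rose and 14.1% fell by edgeR). At an unadjusted P below 0.05, 0 were higher and 2 were lower by edgeR (20.6% and 19.9% of all genes). By DESeq2, 0 were higher and 1 was lower (3243 and 2959 of 16968 genes). All libraries labelled *M*-cKO were above Ctrl in 1 of the 10 genes and below in 3 (22.2% and 22.7% of all genes). Fold changes were negative in 9 of the 10, with a median log2 value of -0.21 beside -0.01 for all genes. In *F*-cKO 11 passed the filter and 0 were called by either tool (11.5% and 9.57% of all genes by edgeR). At an unadjusted P below 0.05, 0 were higher and 1 lower by edgeR (18.2% and 17.5%), and 0 by DESeq2 (2888 and 2507 of 16944 genes). All libraries were above the Ctrl range in 0 genes and below it in 1 (19.2% and 22.7%). Between the knockouts 12 passed and 0 were called by either tool (13.1% and 14.3% by edgeR). At an unadjusted P below 0.05, 0 were higher and 1 lower in *M*-cKO by edgeR (19.4% and 20.6%), and 0 by DESeq2 (2968 and 3084 of 16802 genes). All libraries labelled *M*-cKO were above *F*-cKO in 1 gene and below in 2 (23.7% and 20.2%).

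Snord104 had 217, 223 and 196 reads in Ctrl, 288, 231 and 272 in the libraries labelled *M*-cKO and 207, 231 and 185 in *F*-cKO. Snora31 had 52, 53 and 29 reads in Ctrl and 34, 40 and 50 in the libraries labelled *M*-cKO, and Snora17 had 44, 29 and 34 against 26, 27 and 13. For Snord104 the labelled *M*-cKO libraries were above Ctrl, for Snora31 the groups overlapped, and for Snora17 they lay below Ctrl (log2 fold changes 0.24 ± 0.11, -0.17 ± 0.26 and -0.76 ± 0.32, adjusted P = 0.132, 0.672 and 0.0961). Without the filter on low counts, 48 genes were tested in the libraries labelled *M*-cKO, of which 0 were called higher, 1 lower (Snord88c) and 3 were lower at an unadjusted P below 0.05. Over all 30551 genes tested that way, 3123 were called higher and 2407 lower, and 3757 were lower at an unadjusted P below 0.05. What size of change the counts of the 40 genes with fewer than 10 reads per library could show was not tested.

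Where the change in Ribo-seq was set against the change in RNA-seq in one model over 12 libraries, 4 genes had a larger change in Ribo-seq in *M*-cKO and 0 a smaller one (1.24% and 0.824% of all genes). They were Snora31 (2.52 ± 0.43, adjusted P = 0.0205), Snora17 (3.03 ± 0.61, adjusted P = 0.0333), Snora47 (4.41 ± 0.92, adjusted P = 0.0369) and Snord65 (2.92 ± 0.66, adjusted P = 0.045). The model held all 57 genes, while 10 passed the filter on low counts in RNA-seq alone. Snora31 and Snora17 were among the 10, and Snora47 and Snord65 were not. For the 8 genes with no RNA-seq read, the model's value rested on the Ribo-seq change alone. At an unadjusted P below 0.05, 19 genes had a larger change (11% of all genes) and 1 a smaller one (8.86%). The count of 4 was sensitive to single libraries. It was 0 without Ribo-seq Ctrl library 1 or 2, RNA-seq Ctrl library 2 or 3, or the first or second RNA-seq library labelled *M*-cKO, 1 without RNA-seq Ctrl library 1 or the third RNA-seq library labelled *M*-cKO, 9 without Ribo-seq Ctrl library 3 and 13 without Ribo-seq *M*-cKO library 3. Calls over all genes moved alike, from 178 larger in the full model to 6 to 36 in the fits that gave 0 members, 52 and 34 in those that gave 1, 211 in the one that gave 9 and 449 in the one that gave 13. In *F*-cKO 0 genes were called by edgeR or DESeq2 (0% of all genes by edgeR, 6 larger and 41 smaller of 14322 by DESeq2). At an unadjusted P below 0.05, 3 had a larger and 0 a smaller change by edgeR (2.86% and 5.83% of all genes). By DESeq2, 2 had a larger and 0 a smaller one (617 and 707 of 14322 genes). Without the second Ribo-seq *F*-cKO library the edgeR counts were 0 called, and 5 larger and 0 smaller at an unadjusted P below 0.05 (798 and 1009 of 14327 genes). The count of 3 larger changes was 1 without Ribo-seq Ctrl library 1 or *F*-cKO library 1 (246 and 1571 of all genes). It was also 1 without RNA-seq *F*-cKO library 1 (249), and 6 without Ribo-seq Ctrl library 3 or *F*-cKO library 3 (375 and 1393). Mettl3 went against the label in the RNA-seq libraries labelled *M*-cKO, while other measures followed the labels. Fto FPKM was 10.8, 11.2 and 8.37 in Ctrl, 12.1 to 13.6 in the libraries labelled *M*-cKO and 3.26, 7.56 and 2.43 in *F*-cKO, and the ganglionic eminence sum was 53.5 to 54.4 FPKM in Ctrl and 78.3 to 108 in the libraries labelled *M*-cKO, higher as in Ribo-seq.

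Host genes were taken as the genes whose span contains a member. Whether the members are cut from their transcripts was not tested, and Ribo-seq counts at a host do not measure its transcription. Of the 57 genes, 53 lay within the span of another gene in the RefSeq table, in 47 hosts (36 protein coding, 11 noncoding), and 4 did not (Scarna2, Snord118, Snord89 and Snord13). The table gives no strand and no exons, so intron or exon position is not stated. Ribosomal protein genes made up 11 of the hosts and held 14 members. Of the 42 hosts with an identifier in the count tables, 39 were tested in Ribo-seq *M*-cKO against Ctrl, where 1 rose and 2 fell (7.13% and 7.5% of all genes), with a median log2 fold change of -0.04.

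Hosts and members were then set side by side. Of 21 members that rose and whose host had an identifier, the host rose in Ribo-seq for 1, fell for 2 and was not called for 17 and not tested for 1, beside 7.13% and 7.5% of all genes called higher and lower. The host that rose was Srcap, a chromatin remodelling ATPase that holds Snora30 (0.68, adjusted P = 0.0181, beside 3.80 for Snora30). Rbmx, which holds Snord61, fell by 0.95 on the log2 scale (adjusted P = 0.0166, beside 3.06 for Snord61), and Snx5, which holds Snord17, fell by 0.40 (adjusted P = 0.041, beside 1.26). Tpt1, Rpl23 and Rpl3 were not called, at -0.57, -0.04 and -0.06, beside 2.29 for Snora31, 3.99 for Snora21 and -1.52 for Snord43.

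In RNA-seq, 7 of 40 hosts tested were higher and 2 lower in the libraries labelled *M*-cKO (15.5% and 14.1% of all genes). For the same 21 members, the host was higher for 5, lower for 1 and not called for 15. Zbed3, the host of Snora47, was higher by 0.82 (adjusted P = 8.7e-05), and Haus6, the host of Scarna8, by 0.57 (adjusted P = 0.00288). In *F*-cKO against Ctrl, 11 of 40 hosts were higher and 5 lower in RNA-seq (11.5% and 9.57% of all genes). None of 39 was called in Ribo-seq, as for all genes (0%).

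**Figure D5:**
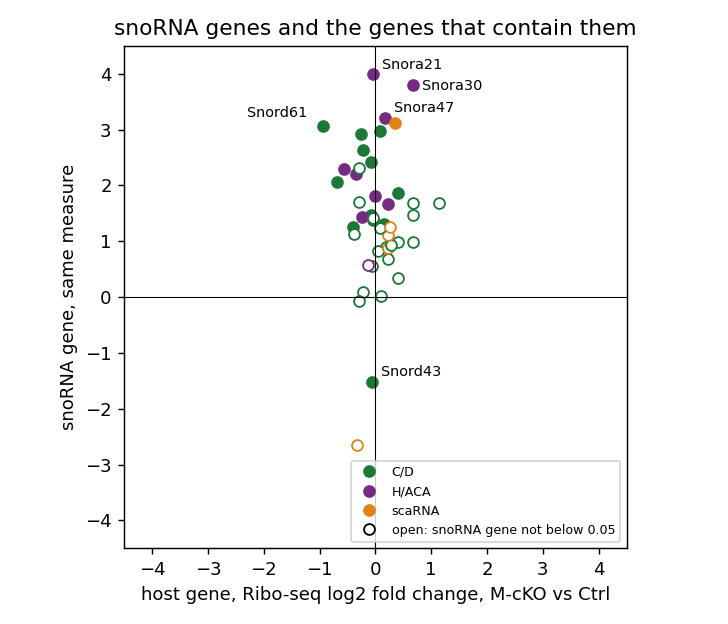
Log2 fold change in Ribo-seq, *M*-cKO over Ctrl, of each snoRNA gene (vertical axis) against that of the host gene that contains it (horizontal axis). Most hosts lie near 0 (median -0.04, with Rbmx at -0.95 and Rpl23a, which was not called, at 1.14), while the snoRNA genes plotted run from -2.66 to 3.99; filled points mark snoRNA genes with an adjusted P below 0.05.

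The proteins of the snoRNA particles were read from the same fits. Of 25 genes (4 C/D core proteins, 4 H/ACA core proteins, 13 assembly factors and 4 proteins of the U3 particle), 2 rose and 2 fell in Ribo-seq in *M*-cKO, with a median log2 fold change of 0.02. That is close to the shares of all genes (7.13% and 7.5%), so the counts do not set the list apart. Coil, the scaffold of Cajal bodies, rose by 0.63 ± 0.09 (adjusted P = 0.00946), and Imp3, a protein of the U3 particle, rose by 0.86 ± 0.20 (adjusted P = 0.0319). Znhit6, a factor of C/D particle assembly, fell by 0.54 ± 0.11 (adjusted P = 0.0211), and Pih1d1, a subunit of the R2TP assembly chaperone, fell by 0.51 ± 0.11 (adjusted P = 0.0271). None of the core proteins was called in Ribo-seq: neither Fbl, Nop56, Nop58 and Snu13 of C/D particles nor Dkc1, Nop10, Nhp2 and Gar1 of H/ACA particles. In Ribo-seq in *F*-cKO 0 of the 25 passed, as did 0% of all genes.

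In the RNA-seq libraries labelled *M*-cKO, 6 of the 25 protein genes were higher and 1 was lower (15.5% and 14.1% of all genes), by the edgeR fit. Imp3 (0.91 ± 0.06), Coil (0.56 ± 0.08) and Pih1d1 (-0.48 ± 0.09) were called in both assays with the same sign. Nhp2 (0.48 ± 0.06, adjusted P = 0.000295) and Gar1 (0.26 ± 0.09, adjusted P = 0.0395), both H/ACA core proteins, and Shq1 (0.62 ± 0.11) and Imp4 (0.31 ± 0.08) were called higher in RNA-seq only, and Gar1 had the opposite sign in Ribo-seq (-0.23 ± 0.18, not called). In *F*-cKO against Ctrl, 4 of the 25 were higher in RNA-seq and 2 lower (11.5% and 9.57% of all genes). Those higher were Tgs1, Mphosph10, Ruvbl2 and the H/ACA core protein Dkc1 (0.25 ± 0.07, adjusted P = 0.035), and those lower were Pih1d1 and the H/ACA core protein Nop10 (-0.38 ± 0.08, adjusted P = 0.0133).

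Some genes that match the symbol rule had no counts. Of 150 such symbols, 93 were blank in the Ribo-seq count table, and 83 of these were listed at 0 RPKM in all 9 libraries. They included members with special roles: the Snord14 copies, Snord22, Snora73a and Snora73b, and 17 copies of the imprinted Snord116 cluster. A further 54 genes of RefSeq's snoRNA and guide RNA classes had counts but other symbols. Of the 53 of these tested, 27 rose and 0 fell in *M*-cKO against Ctrl in Ribo-seq, with a median log2 fold change of 1.37 (7.13% and 7.5% of all genes, median 0.00). In *F*-cKO against Ctrl 0 of the 53 were called, with a median of 1.00 beside 0.05 for all genes. In RNA-seq 9 were tested in the libraries labelled *M*-cKO, of which 0 were called higher and 1 lower (15.5% and 14.1% of all genes), with a median of 0.02.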

How the data were processed

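The authors prepared Ribo-seq libraries from RNase I digests of cycloheximide-treated cortex lysate, with monosomes isolated on size-exclusion columns, rRNA depleted and 20 to 38 nt fragments cut from a gel. They deposited fragment counts per gene and RPKM for Ribo-seq, and read counts and FPKM (150 bp paired reads) for RNA-seq. The submitters' processing notes name TopHat2, HTSeq, HISAT2 2.0.5, DESeq2 1.14.1 and the mm10 build. The annotation, the handling of multiply mapped reads and whether counting used strand are not given in the sources used here, so genes with near-identical copies or overlapping partners are uncertain. Length and size selection affect which snoRNA fragments are seen. Counts were blank for most genes in 8 of the 9 Ribo-seq columns, and only the 14348 complete rows were used.

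Genes were filtered with filterByExpr (minimum count 10, minimum total 15), scaled by TMM and tested with edgeR 4.0.16 (quasi-likelihood, R 4.3.3) on the 6 libraries of each comparison. P values were adjusted by Benjamini-Hochberg over all genes, and genes below 0.05 were called. The ratio of assays was tested as an interaction over 12 libraries. DESeq2 1.42.0, RLE scaling, TMM from protein-coding genes, no filter, 1 fit of all libraries, a replicate block and leaving out each library were alternatives. The edgeR script was tested on simulated data. CPM was taken over all counted fragments of a library, without TMM factors. RPKM and FPKM of the authors were used for the targeted genes, marker sets and blank symbols only, and never tested. No 2 libraries held identical values. Positions and hosts came from RefSeq (57 of 57 symbols matched), and hosts were found by span only, since that table has no strand. Named genes were, per class, the 5 with the most CPM, the 5 smallest P values among calls in *M*-cKO, the 3 smallest P values in the other Ribo-seq comparisons and members with special roles. Snord49b, Snord83b, Snord23, Snord58b, Snord123, Snord93, Snora23, Snora41, Snora69, Snord37, Snord8, Snord32a, Snord88c and the host genes were named after their values were seen. C/D sums without the most abundant genes were added after the data were seen. Members and lists were chosen with earlier results of these data known. The check of cortical markers and the host of Snord55 are not reported here.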

Additional observations from a re-analysis of the deposited data

Results flagged for a closer look

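Results were looked at again where a test of the difference between assays passed, or where a signal appeared in data outside the main comparisons. Groups of 3 libraries are too small for the check on outlying samples. In *M*-cKO against Ctrl, the change in Ribo-seq exceeded the change in RNA-seq by 2.92 on the log2 scale for Snord65, 2.52 for Snora31, 3.03 for Snora17 and 4.41 for Snora47 (edgeR interaction test, adjusted P = 0.045, 0.0205, 0.0333 and 0.0369). Snora47 had at most 15 reads in any RNA-seq library and Snord65 at most 14.

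Of the 93 symbols with blank counts, 10 had a Ribo-seq RPKM above 0 in some library. In 5 of the 10 each *M*-cKO library was above all 3 Ctrl libraries, beside 20.1% of all genes with counts. These 5 are given because of that pattern, with no test. Mean RPKM in *M*-cKO was 45.4 for Snord92 (6.92 in Ctrl), 61.1 for Snora35 (3.77), 33.3 for Scarna17 (8.45), 3.38 for Snora78 (1.32) and 1.43 for Snora36b (0.201). Snora35 lies within Htr2c, a serotonin receptor gene, and was at 53.1, 88.1 and 42.2 RPKM in *M*-cKO and at 7.39, 3.1 and 0.568 RPKM in *F*-cKO.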

How the results depend on the processing

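In Ribo-seq, *M*-cKO against Ctrl, RLE scaling, TMM from protein-coding genes and no filter left the counts at 26 higher and 1 lower, DESeq2 gave 34 and 1, and one fit of all 9 libraries gave 1 and 0 (0.202% and 0.0419% of all genes). Leaving out single libraries gave 5 to 34 higher and 0 to 1 lower, where 115 to 1303 and 62 to 1244 of all genes were called. All 27 calls kept their direction in all 12 alternatives. Same-numbered libraries showed no strong shared deviation (correlations of deviations -0.08 to 0.16 in this comparison). With 3 libraries per group this cannot settle whether the numbers pair them. A replicate block gave 17 higher and 1 lower there (4.76% and 4.46% of all genes). It gave 1 lower in RNA-seq (2046 of 16968 genes) and 1 higher for the ratio of assays (103 of 14328 genes).

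DESeq2 called 5 genes higher in *M*-cKO than in *F*-cKO. In RNA-seq, libraries labelled *M*-cKO against Ctrl, the count of lower genes was 1 (Snord88c) with no filter (2407 of 30551 genes). It was 0 to 1 when single libraries were left out (1498 to 2146 of all genes). For the ratio of assays in *M*-cKO, DESeq2 gave 13 higher (552 of 14328 genes in all) and one fit of all 18 libraries 0 (5 of 14340). Leaving out single libraries gave 0 to 13 (6 to 449 of all genes). Medians when single libraries were left out ran from 0.99 to 1.57 (C/D), 2.04 to 2.72 (H/ACA) and 0.73 to 1.68 (scaRNA) in *M*-cKO, and from 0.49 to 1.43, -0.12 to 1.55 and 0.50 to 2.34 in *F*-cKO. The H/ACA median in *F*-cKO turned to -0.12 without *F*-cKO library 1. Log2 fold changes turned sign for several genes, among them Scarna3a (-3.20 to 0.56, positive without Ctrl library 1) and Snord118 (-1.27 to 0.26, positive without Ctrl library 3) in *M*-cKO, Snora30 in *F*-cKO (-0.12 to 1.59, negative without *F*-cKO library 1) and Scarna6 between the knockouts (-2.60 to 0.40, positive without *F*-cKO library 2). Further members turned sign without *F*-cKO library 2, among them Snord8 (1.67 to -0.81), Snord118 (0.84 to -0.77) and Snord43 (0.05 to -0.47) in *F*-cKO, and Snord32a (-1.46 to 1.34) and Snord104 (-0.51 to 0.12) between the knockouts. The cause was not tested. A replicate block left 3 members higher in *F*-cKO at an unadjusted P below 0.05, beside 0.53% of all genes. In RNA-seq 40 members had fewer than 10 reads in every library, which limits their precision.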
